A study of Homo sapiens with 12 samples.

Results

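KLF4, MYC, CD44, ALDH1A1, ALDH1A3, NGFR and PROM1 are widely used as markers of stem-like cells in squamous carcinomas. Their transcripts were followed by RNA-seq in 2 lines of head and neck squamous cell carcinoma (HNSCC) when MUC1 was silenced. The genes were taken by symbol from the deposited count tables, and all 7 had 1 row among the 39368 symbols listed for each line. Both lines, CAL27 and HSC3, are established and HPV-negative, and both carried tet-MUC1shRNA, an shRNA against MUC1 that is switched on by doxycycline (DOX). Cells of each line received 500 ng/mL DOX, or DMSO at 0.1% as the vehicle, over 7 days. Each of these 4 groups had 3 libraries, 12 in all. CAL27 cells were grown in DMEM and HSC3 cells in MEM, so that line and medium cannot be told apart in a comparison of the lines. No library of DOX-treated control shRNA cells was analysed here, and silencing of MUC1 therefore cannot be told apart from other effects of DOX or of an induced shRNA.

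The 7 genes encode proteins of different kinds. KLF4 and MYC are transcription factors of the set that returns somatic cells to pluripotency. In stratified squamous epithelium KLF4 is better known for terminal differentiation, and MYC for growth and ribosome production. CD44 is the main cell surface receptor for hyaluronan. NGFR, also called CD271 or p75NTR, is a receptor for neurotrophins that marks basal cells of stratified epithelia, and PROM1 (CD133) is a membrane glycoprotein of cell protrusions. ALDH1A1 and ALDH1A3 are cytosolic enzymes that oxidize retinal to retinoic acid, and their activity underlies the assays that sort ALDH-positive cells. The tables hold transcripts summed over a culture, in which fewer cells of a type and less RNA per cell cannot be told apart.

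Among vehicle libraries the total count was 126328662, 97477659 and 108406101 for CAL27 cells and 125052179, 89730914 and 130393198 for HSC3 cells. Among DOX libraries it was 97280495, 92866845 and 117677241 for CAL27 cells and 169065103, 146548684 and 134231542 for HSC3 cells. At these depths 1 molecule may have been counted several times. The share of genes without a count gave an estimate of 2.45 to 3.33 times in the CAL27 libraries. It was 4.18 to 7.43 times in the HSC3 vehicle libraries and 8.93 to 17.2 times in the HSC3 DOX libraries. Differences between the libraries of a group also raise this estimate, so numbers of molecules derived from it may be too low. HSC3 DOX replicate 1 stood apart. It had the estimate of 17.2 counts per molecule. Its counts differed from those of HSC3 DOX replicates 2 and 3 with a chi-square of 132 and 85.4 per degree of freedom, against 21.98 between those replicates. Results in HSC3 cells are therefore also given without it for MUC1 and the members tested, and for other responses to DOX in HSC3 cells where leaving it out changed a call or moved a count of genes by more than 1.5 times.

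The label of squamous carcinoma was checked against marker genes. All 12 squamous epithelium genes had counts in both lines, with a summed level of 9097 CPM (a count per 1000000 counts of its library) in CAL27 and 9261 CPM in HSC3 vehicle libraries and with KRT5 as the most abundant. Their sum was 5156 CPM in CAL27 and 5911 CPM in HSC3 DOX libraries. Genes of fibroblasts summed to 13.8 CPM in CAL27 and 4.73 CPM in HSC3 vehicle libraries, those of leukocytes to 5.13 and 1.39 CPM, those of endothelium to 15.2 and 0.582 CPM, and those of neural crest to 2.81 and 2.76 CPM. CDH5 held 14.6 CPM of the endothelial sum in CAL27 vehicle libraries. With DOX the fibroblast genes summed to 10.4 CPM in CAL27 and 7.74 CPM in HSC3 libraries, and leukocyte genes to 4.34 and 1.04 CPM. Those of endothelium summed to 10.3 and 0.285 CPM. Of fibroblast genes tested, 3 of 4 fell and 0 rose in CAL27 cells, and the 1 in HSC3 cells rose (log2 0.73). Of endothelial genes, 2 of 2 fell in CAL27 cells and 0 of 2 passed in HSC3 cells. Of the 12 squamous epithelium genes, 8 fell and 1 rose in CAL27 cells, and 6 fell and 2 rose in HSC3 cells. Over all genes tested, 21.8% fell and 22.6% rose in CAL27 cells, with 15.4% and 13% in HSC3 cells. These counts of marker genes were taken with all libraries only.

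Levels are given as CPM normalized over all 12 libraries by the trimmed mean of M values (TMM), and a change passed the test where edgeR gave an adjusted p (Benjamini-Hochberg, over every gene tested in that comparison) under 0.05. MUC1, the target of the shRNA (chr1:155185824-155192916, minus strand of GRCh38), was examined first. It stood at 58.4, 53.1 and 54.3 CPM in the CAL27 vehicle libraries and at 2.92, 2.76 and 3.25 CPM in the DOX libraries, a log2 fold change of -4.21 (SE 0.07, adjusted p = 1.62e-19). In HSC3 cells it stood at 1.66, 1.97 and 1.64 CPM with vehicle and at 0.31, 0.267 and 0.132 CPM with DOX, a log2 fold change of -2.88 (SE 0.38, adjusted p = 0.000202), or -3.12 without HSC3 DOX replicate 1. MUC1 thus fell by 18.5-fold in CAL27 cells and by 7.38-fold in HSC3 cells. The HSC3 value rests on 46, 36 and 16 MUC1 counts in the DOX libraries, an estimated 1.42 to 4.03 molecules each, so its size is uncertain. Before DOX, HSC3 cells had less MUC1 (1.76 ± 0.186 CPM, SD, n = 3) than CAL27 cells had after it (2.98 ± 0.249 CPM, SD, n = 3), without overlap.

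**Figure D1:**
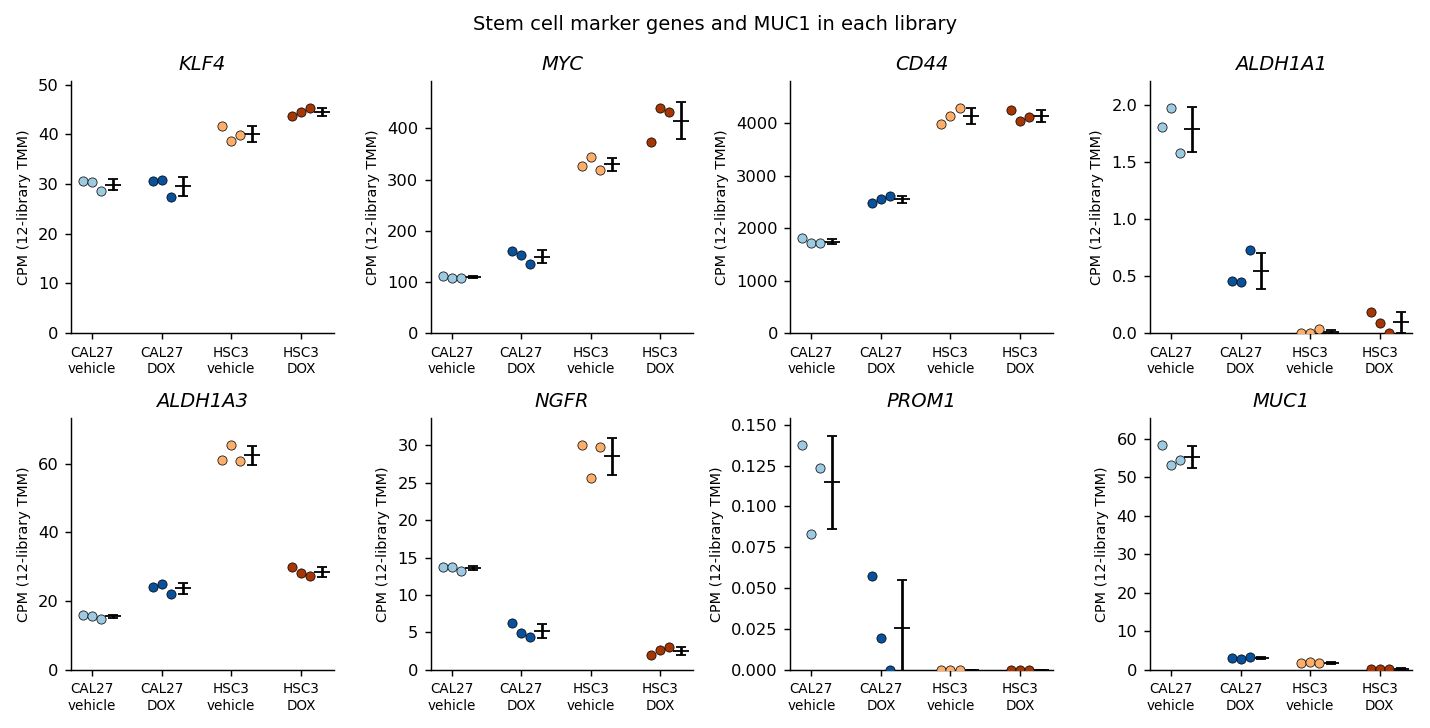
Level of each of the 7 marker genes and of MUC1 in each of the 12 libraries, in CPM normalized over all 12 libraries by TMM. Each point is 1 library, the wide tick is the mean of 3 and the bars are the SD, cut at 0. NGFR fell with DOX in both lines, ALDH1A3 moved in opposite directions, and KLF4 stayed between 27.4 and 45.3 CPM.

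In CAL27 cells 6 of the 7 genes had enough counts to be tested for a response to DOX. MYC, CD44 and ALDH1A3 rose, ALDH1A1 and NGFR fell, and KLF4 did not pass. Of all 19239 genes tested in CAL27 cells, 22.6% rose and 21.8% fell. In HSC3 cells 5 genes were tested, of which MYC rose, ALDH1A3 and NGFR fell, and KLF4 and CD44 did not pass. Of all 18021 genes tested there, 13% rose and 15.4% fell. Falls of more than 2-fold were found for 2 of the 6 genes in CAL27 cells (ALDH1A1 and NGFR) and for 2 of the 5 in HSC3 cells (ALDH1A3 and NGFR), against 5.11% and 4.4% of all genes tested. The call for ALDH1A1 was lost in 1 fit of all 12 libraries. The 7 genes thus did not move as a set, and NGFR was the member that fell in both lines.

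The vehicle and DOX libraries did not overlap for 5 of the 6 genes tested in CAL27 cells and for 4 of the 5 in HSC3 cells. The same held for 52.4% and 42.6% of all genes tested, so that groups without overlap are common in these data. With 3 libraries against 3, an exact two-sided permutation test of 1 gene cannot give a p below 0.1.

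Between the lines, KLF4, MYC, CD44, ALDH1A3 and NGFR were higher and ALDH1A1 and PROM1 lower in HSC3 than in CAL27 vehicle libraries. All 7 passed this test and none of the 7 overlapped between the lines. PROM1 rests on 9 to 19 counts in the CAL27 libraries, and on the scale of estimated molecules it could not be tested and the other 6 passed. Of all 20694 genes tested, 30.6% were higher and 32.3% lower in HSC3, and 74.3% did not overlap.

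Compared per kilobase of annotated exon, CD44 was the most abundant of the 7 genes in all 4 groups, at 174 and 255 CPM per kb in CAL27 vehicle and DOX libraries and at 414 CPM per kb in each HSC3 group. MYC followed at 17.8, 24.4, 54.0 and 68.0 CPM per kb in CAL27 vehicle, CAL27 DOX, HSC3 vehicle and HSC3 DOX libraries. In CAL27 vehicle libraries the order then ran through KLF4 (8.15 CPM per kb), NGFR (3.28), ALDH1A3 (2.91) and ALDH1A1 (0.63) to PROM1 (0.0154), and no neighbours in this order overlapped between libraries. In CAL27 DOX libraries NGFR (1.25 CPM per kb) was below ALDH1A3 (4.44). In HSC3 vehicle libraries ALDH1A3 (11.7 CPM per kb) and KLF4 (10.95) overlapped, NGFR stood at 6.89 CPM per kb, and ALDH1A1 and PROM1 overlapped at or near 0. In HSC3 DOX libraries KLF4 (12.2 CPM per kb) was above ALDH1A3 (5.34), and NGFR had gone to 0.617 CPM per kb.

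**Figure D2:**
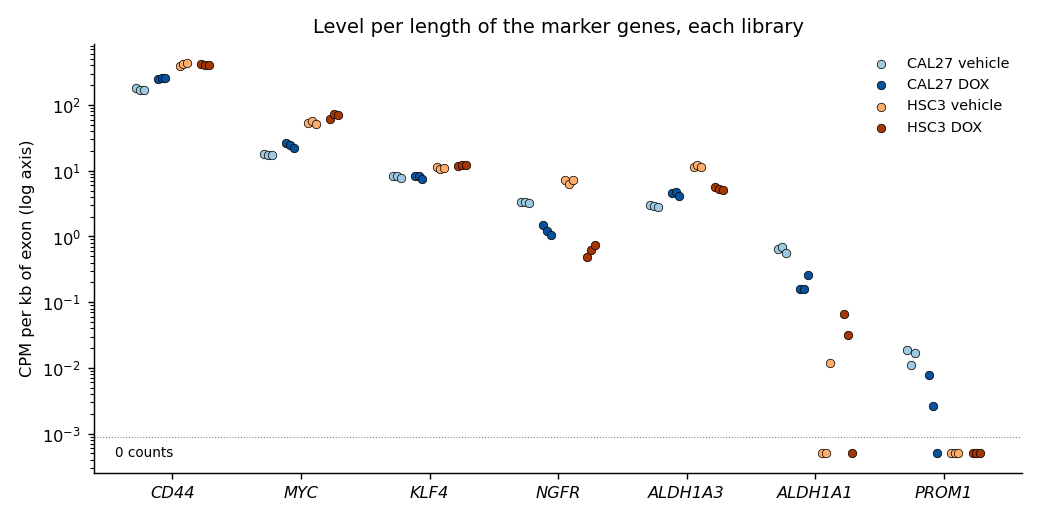
Level of the 7 marker genes in CPM per kb of annotated exon (log axis) in each library, with the 4 groups side by side. Points under the dotted line are libraries with 0 counts. CD44 lay highest in all 4 groups, at 174 to 414 CPM per kb, and PROM1 had no count in any HSC3 library.

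Of the transcription factors KLF4 and MYC, KLF4 (chr9:107484852-107490482, minus strand) had the smaller response in both lines. It stood at 30.6, 30.3 and 28.6 CPM in the CAL27 vehicle libraries and at 30.6, 30.8 and 27.4 CPM in the DOX libraries, which overlapped (exact permutation p = 0.8). The log2 fold change was -0.015 (adjusted p = 0.854), with a 95% interval of -0.13 to 0.10. In HSC3 cells KLF4 stood at 41.8, 38.6 and 39.9 CPM with vehicle and at 43.6, 44.6 and 45.3 CPM with DOX. All 3 DOX libraries were above the vehicle libraries, but the log2 fold change of 0.15 (95% interval -0.02 to 0.31, adjusted p = 0.183) did not pass, nor did it without HSC3 DOX replicate 1 (0.17, adjusted p = 0.0722). In the vehicle libraries KLF4 was 1.34-fold higher in HSC3 cells (log2 0.43, SE 0.06, adjusted p = 2.54e-05). This difference between the lines was the smallest among the 5 genes higher in HSC3.

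Of 13 other KLF genes tested in CAL27 cells, 5 rose and 5 fell, against 22.6% and 21.8% of all genes tested. Of 13 in HSC3 cells 2 rose and 4 fell, against 13% and 15.4%. KLF5, a factor of proliferating epithelial cells, fell from 348 to 164 CPM in CAL27 cells (log2 -1.09, adjusted p = 2.13e-13) and from 570.2 to 292 CPM in HSC3 cells (log2 -0.97, adjusted p = 1.41e-06). KLF6 had a log2 fold change of -0.0015 in CAL27 cells and rose in HSC3 cells (log2 0.38, adjusted p = 0.00075). A fall of KLF5 in both lines thus stood beside a level of KLF4 that did not pass in either.

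MYC (chr8:127735434-127742951, plus strand) rose in both lines. It stood at 111, 108 and 107 CPM in the CAL27 vehicle libraries and at 160.1, 152 and 136 CPM in the DOX libraries, a rise of 1.37-fold (log2 0.45, SE 0.05, adjusted p = 2.74e-07). In HSC3 cells it stood at 327, 344 and 318 CPM with vehicle and at 374, 439.9 and 432 CPM with DOX, a rise of 1.26-fold (log2 0.33, SE 0.07, adjusted p = 0.00643). The groups did not overlap in either line, and HSC3 DOX replicate 1 was the lowest of the HSC3 DOX libraries. Without it the log2 fold change was 0.40 (adjusted p = 1.04e-06). The response did not pass as different between the lines (log2 difference -0.12, 95% interval -0.33 to 0.08, adjusted p = 0.44). Before DOX, MYC was 3.03-fold higher in HSC3 than in CAL27 cells (log2 1.60, SE 0.07, adjusted p = 1.7e-11).

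MYC binds DNA as a dimer with MAX, and the MXD and MNT proteins compete for MAX and repress the same sites. Of 14 other genes of this network tested in CAL27 cells, 5 rose and 6 fell, against 22.6% and 21.8% of all genes tested. Of 13 in HSC3 cells 3 rose and 2 fell, against 13% and 15.4%, or 1 and 1 without HSC3 vehicle replicate 1 or 3. The number of falls was also 1 without HSC3 vehicle replicate 2 or HSC3 DOX replicate 2 or 3. MAX itself did not pass in either line, though it did in 2 of 12 alternatives in CAL27 cells. MXD1 rose in CAL27 cells (log2 0.51) and not in HSC3 cells (log2 -0.17, adjusted p = 0.0885), where it passed in 3 of 13 alternatives, among them without HSC3 DOX replicate 1 (log2 -0.18, adjusted p = 0.0185). MXI1 fell in CAL27 cells (log2 -0.92) and in HSC3 cells (log2 -0.38), and MNT fell in CAL27 cells (log2 -0.18, lost in 1 fit of all 12 libraries at adjusted p = 0.0793) and did not pass in HSC3 cells.

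Genes known as MYC targets were counted next. Of 35 such genes tested in CAL27 cells, 30 rose and 1 fell (2 without CAL27 DOX library 5 or 6), against 22.6% and 21.8% of all genes tested. Their median log2 fold change was 0.36 against -0.0052 over all genes tested. Of 35 in HSC3 cells, 6 rose and 5 fell, against 13% and 15.4%, with a median of 0.094 against -0.0097. In the test of the difference between the lines, 15 of these genes had a lower response in HSC3 cells and 0 a higher one, against 12.3% and 8.25% of all genes tested. That count was not repeated without HSC3 DOX replicate 1. The number that rose in HSC3 cells was 13 without HSC3 DOX replicate 1, 3 without HSC3 vehicle replicate 3 and 13 in 1 fit of all 12 libraries. ODC1, the first enzyme of polyamine synthesis, rose from 54.1 to 119 CPM in CAL27 cells (log2 1.14) and from 161 to 293 CPM in HSC3 cells (log2 0.86). AIMP2, a scaffold of the tRNA synthetase complex, fell in CAL27 cells (log2 -0.89) and in HSC3 cells (log2 -1.26), and 29.1% of its exon bases lie opposite the gene EIF2AK1. LDHA, which makes lactate, fell in HSC3 cells (log2 -1.19) and had a log2 fold change of -0.40 (adjusted p = 0.0661) in CAL27 cells, where it passed in 4 of 12 alternatives.

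**Figure D3:**
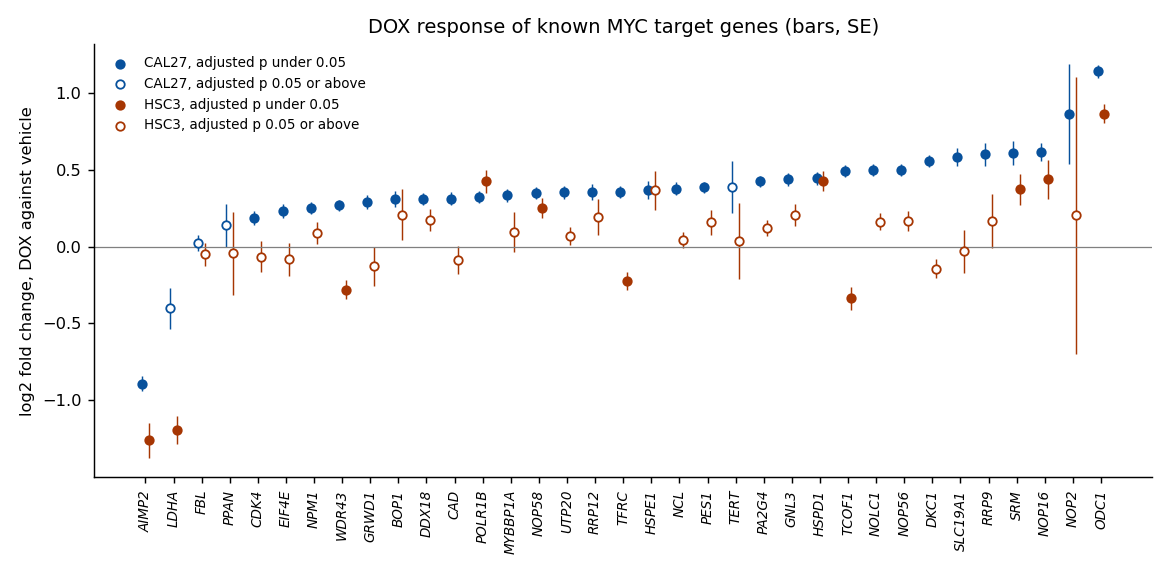
Log2 fold change with DOX of 35 known MYC target genes in CAL27 and HSC3 cells, ordered by the value in CAL27, with bars for the SE and filled points for an adjusted p under 0.05. In CAL27 cells 30 genes rose and 1 fell, and in HSC3 cells 6 rose and 5 fell.

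CD44 (chr11:35138882-35232402, plus strand) rose in CAL27 cells and showed no change that passed in HSC3 cells. It stood at 1803, 1716 and 1707 CPM in the CAL27 vehicle libraries and at 2467, 2556 and 2607 CPM in the DOX libraries, a rise of 1.46-fold (log2 0.54, SE 0.04, adjusted p = 1.75e-09) without overlap. In HSC3 cells it stood at 3972, 4142 and 4286 CPM with vehicle and at 4257, 4032 and 4123 CPM with DOX. These groups overlapped (exact permutation p = 0.9), and the log2 fold change of -0.0029 had a 95% interval of -0.13 to 0.12 (adjusted p = 0.979), with a value of -0.019 (adjusted p = 0.816) without HSC3 DOX replicate 1. The response of HSC3 minus that of CAL27 cells was -0.54 on the log2 scale (SE 0.07, adjusted p = 3.67e-05). Before DOX, CD44 was 2.37-fold higher in HSC3 than in CAL27 cells (log2 1.25, SE 0.05, adjusted p = 3.73e-12), and with DOX the CAL27 level of 2543 ± 70.6 CPM was still below the HSC3 level of 4138 ± 113 CPM (SD, n = 3). The counts are per gene and do not separate the standard from the variant isoforms of CD44.

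The enzymes and splicing factors around CD44 were examined next. HAS3, a hyaluronan synthase, rose from 5.65 to 11.9 CPM in CAL27 cells (log2 1.07, SE 0.08, adjusted p = 2.44e-09) and fell from 53.4 to 19.9 CPM in HSC3 cells (log2 -1.43, SE 0.12, adjusted p = 7.81e-06). Its response differed between the lines by -2.50 on the log2 scale (adjusted p = 5.49e-08). HAS2, another synthase, was near 0 in CAL27 cells, at 0.0778 CPM with vehicle and 0.267 CPM with DOX (2 to 16 counts against 24 to 40), a rise (log2 1.73, adjusted p = 0.0086) that was lost in 1 fit of all 12 libraries (adjusted p = 0.286). In HSC3 cells HAS2 had at most 10 counts with vehicle and 0 in each DOX library and was not tested in that line alone. The difference between the lines passed for HAS2 (adjusted p = 0.0221), was lost without CAL27 DOX library 6 or HSC3 vehicle replicate 3, and has no fold to give. CEMIP, which takes part in hyaluronan breakdown, fell in CAL27 cells (log2 -0.86) and in HSC3 cells (log2 -1.45). ESRP1, a splicing factor that favours variant exons of CD44, did not pass in CAL27 cells (log2 0.05, adjusted p = 0.316) or HSC3 cells (log2 0.04, adjusted p = 0.731), and ESRP2 rose in both (log2 0.22 in CAL27 and 0.52 in HSC3 cells). HMMR, another hyaluronan receptor, rose in CAL27 cells (log2 0.22) and had a log2 fold change of -0.14 that did not pass in HSC3 cells, but fell there without HSC3 DOX replicate 1 (log2 -0.23, adjusted p = 0.0145). Of the whole list without CD44, 7 of 16 genes tested rose and 4 fell in CAL27 cells, or 2 fell without CAL27 vehicle replicate 1. In HSC3 cells 5 of 14 rose and 3 fell, or 5 fell without HSC3 DOX replicate 1. Over all genes tested, 22.6% rose and 21.8% fell in CAL27 cells, with 13% and 15.4% in HSC3 cells.

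NGFR (chr17:49495293-49515008, plus strand) fell in both lines and was the member with the largest fall in HSC3 cells. It stood at 13.8, 13.7 and 13.2 CPM in the CAL27 vehicle libraries and at 6.22, 4.95 and 4.39 CPM in the DOX libraries, a fall of 2.63-fold (log2 -1.40, SE 0.10, adjusted p = 1.5e-09). In HSC3 cells it stood at 30.1, 25.6 and 29.8 CPM with vehicle and at 2.01, 2.6 and 3.05 CPM with DOX, a fall of 11.2-fold (log2 -3.49, SE 0.16, adjusted p = 1.95e-07). The groups did not overlap in either line, and without HSC3 DOX replicate 1 the HSC3 value was -3.34. The fall was larger in HSC3 cells (log2 difference of the responses, HSC3 minus CAL27, -2.09, SE 0.20, adjusted p = 4.04e-06). Before DOX, NGFR was 2.10-fold higher in HSC3 than in CAL27 cells (log2 1.07, SE 0.14, adjusted p = 4.84e-06), and with DOX this order turned, at 5.18 ± 0.94 CPM in CAL27 and 2.55 ± 0.523 CPM in HSC3 cells (SD, n = 3). Of the exon bases of NGFR, 27.2% lie opposite NGFR-AS1 and 1 more gene. The use of strand in counting is not given in the sources used here, so reads of NGFR and of these genes may not be separated.

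NGFR is also expressed by neural crest cells. The neural crest genes summed to 2.81 and 3.16 CPM in CAL27 and to 2.76 and 2.97 CPM in HSC3 vehicle and DOX libraries, and SOX10 and S100B, which define that lineage, were at or below 0.167 CPM in each group. Most basal keratinocyte genes fell. Without NGFR, 9 of 12 tested fell and 3 rose in CAL27 cells with a median log2 fold change of -0.59, and 8 of 12 fell and 0 rose in HSC3 cells with a median of -0.50. Over all genes tested, 21.8% fell and 22.6% rose in CAL27 cells, with 15.4% and 13% in HSC3 cells. KRT14 fell from 603 to 81.1 CPM in CAL27 cells (log2 -2.90) and from 1239 to 339 CPM in HSC3 cells (log2 -1.88). KRT15 fell in CAL27 cells (log2 -2.28) and HSC3 cells (log2 -0.98, lost with no filter on low counts at adjusted p = 0.0508), as did KRT5 (log2 -1.054 and -1.003). What part these falls have in that of NGFR was not tested. Of 17 genes of squamous differentiation tested in CAL27 cells, 2 rose (1 without CAL27 vehicle replicate 2) and 6 fell, led by the suprabasal keratins KRT13 (log2 -3.37) and KRT4 (log2 -3.04) and the differentiation factor ZNF750 (log2 -1.96), and of 14 in HSC3 cells 0 rose and 2 fell, or 1 and 7 in 1 fit of all 12 libraries.

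Among the ligands and partners of NGFR, BDNF rose in CAL27 cells from 1.86 to 4.88 CPM (log2 1.39, SE 0.12, adjusted p = 9.25e-09) and in HSC3 cells from 5.75 to 8.63 CPM (log2 0.58, SE 0.19, adjusted p = 0.0381). The HSC3 call for BDNF was lost in 6 of 13 alternatives, namely with a replicate block and without any 1 of the HSC3 vehicle libraries or HSC3 DOX replicate 1 (adjusted p = 0.0537) or 3. NTF4 fell in CAL27 cells (log2 -0.55, adjusted p = 0.0198) and had a log2 fold change of -0.56 (adjusted p = 0.0796, or 0.0454 in 1 fit of all 12 libraries) in HSC3 cells. The CAL27 call for NTF4 was lost in 4 of 12 alternatives, in 1 fit of all 12 libraries and without CAL27 vehicle replicate 2 or 3 or CAL27 DOX library 5 (adjusted p up to 0.0887). The receptor kinase NTRK2 fell from 59.6 to 31.4 CPM in CAL27 cells (log2 -0.93, SE 0.05, adjusted p = 6.68e-12) and was near 0 in HSC3 cells, at 0.131 and 0.146 CPM. NTF3 and NTRK3 had too few counts to be tested for DOX. SORT1, a co-receptor of NGFR for proneurotrophins, rose in CAL27 cells (log2 0.18, adjusted p = 0.00179) and fell in HSC3 cells (log2 -0.61, adjusted p = 0.0011). SORCS2, a receptor related to SORT1, fell in both (log2 -1.34 in CAL27 and -1.86 in HSC3 cells). Of this list without NGFR, 5 of 14 genes tested rose and 5 fell in CAL27 cells, against 22.6% and 21.8% of all genes tested. In HSC3 cells 2 of 14 rose and 3 fell, against 13% and 15.4%. Only 1 rose there without any 1 of the HSC3 vehicle libraries or HSC3 DOX replicate 1 or 3.

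PROM1 (chr4:15963076-16084378, minus strand) was close to absent. It had 19, 9 and 15 counts in the CAL27 vehicle libraries and 6, 2 and 0 in the DOX libraries, which is 0.138, 0.0831 and 0.124 CPM against 0.0573, 0.0194 and 0 CPM. The groups did not overlap (exact permutation p = 0.1, the smallest possible), but at the estimated depth these are some 3.39 to 6.27 molecules against 0 to 1.80, and PROM1 had too few counts for the test across genes. In HSC3 cells PROM1 had 0 counts in all 6 libraries. A count of 0 allows a level of up to 0.0177 to 0.0334 CPM if each count is 1 molecule (3 counts per library, counting error only). At the estimated counts per molecule, 3 molecules would be 0.14 to 0.305 CPM, which is above the level of PROM1 in CAL27 vehicle libraries. Neither a response nor, on that scale, a difference from CAL27 cells could be detected for PROM1 in HSC3 cells. PROM2, a relative of PROM1 in the same membrane protrusions, was at 256 CPM in CAL27 and 185 CPM in HSC3 vehicle libraries and fell by 0.30 and 0.28 on the log2 scale (adjusted p = 9.02e-06 and 0.0368, the latter lost without any 1 of the HSC3 vehicle libraries). Of 8 genes of the prominin list other than PROM1, 1 rose and 4 fell in CAL27 cells and 1 rose and 5 fell in HSC3 cells, or 3 fell without any 1 of the HSC3 vehicle libraries. Over all genes tested, 22.6% rose and 21.8% fell in CAL27 cells, with 13% and 15.4% in HSC3 cells.

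The 2 retinal dehydrogenases took different courses. ALDH1A1 (chr9:72900671-73080442, minus strand) had 249, 214 and 192 counts in the CAL27 vehicle libraries and 48, 46 and 94 in the DOX libraries, or 1.80, 1.98 and 1.58 CPM against 0.459, 0.446 and 0.730 CPM. It fell by 3.24-fold without overlap (log2 -1.70, SE 0.21, adjusted p = 1.07e-06, or log2 -1.71 and adjusted p = 0.0753 in 1 fit of all 12 libraries), from an estimated 78.4 to 82.1 molecules per library to 14.4 to 32.1. In HSC3 cells the vehicle libraries had 0, 0 and 4 counts and the DOX libraries 28, 12 and 0, an estimated 1.63 molecules at most, and no fold change is given. CAL27 cells were therefore the line in which ALDH1A1 could be followed.

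ALDH1A3 (chr15:100877714-100916626, plus strand) rose in CAL27 and fell in HSC3 cells. It stood at 16.01, 15.7 and 14.9 CPM in the CAL27 vehicle libraries and at 24.2, 25.0 and 21.9 CPM in the DOX libraries, a rise of 1.52-fold (log2 0.61, SE 0.06, adjusted p = 7.91e-08). In HSC3 cells it stood at 61.0, 65.6 and 60.7 CPM with vehicle and at 29.9, 28.3 and 27.3 CPM with DOX, a fall of 2.198-fold (log2 -1.14, SE 0.08, adjusted p = 1.64e-06), or -1.17 on the log2 scale without HSC3 DOX replicate 1. The groups did not overlap in either line. The response differed between the lines by -1.74 on the log2 scale (SE 0.10, adjusted p = 2.87e-08). ALDH1A3 was 4.02-fold higher in HSC3 than in CAL27 vehicle libraries (log2 2.01, SE 0.07, adjusted p = 1.24e-12), and with DOX the lines came to 28.5 ± 1.33 and 23.7 ± 1.58 CPM (SD, n = 3). ALDH1A3-AS1 lies opposite 32.1% of the exon bases of ALDH1A3, and as for NGFR its reads may not be separated. The mature sequences of ALDH1A1 and ALDH1A3 shared no run of 50 bases.

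The start regions of these genes, from 250 bases before to 50 after the start in RefSeq (GRCh38.p14), are shown for the 2 dehydrogenases, which moved in opposite directions in CAL27 cells, and for KLF4, whose start holds the only CACGTG among the members matched. Of the 7 members, 5 were matched to this table. The motif of STAT factors, TTCNNNGAA, was looked for on both strands because the study addresses STAT signalling, and it was in none of the 8 start regions of these 5 members (PROM1 has 4) and in 7.66% of all 35116 start regions. CACGTG, the site of MYC and MAX, was in 7.26% of all and in 1 of the 8, that of KLF4, at 157 bases before the start. CCAAT, searched for after the sequences had been seen, was in 34.6% of all and in 3 of the 8, at 74 bases before the start in ALDH1A1, 71 in ALDH1A3 and 53 in 1 of the 4 regions of PROM1. None of these 3 motifs contains another. Capitals mark CCAAT in the sequences of ALDH1A1 (chr9:72953004-72953303, minus strand) and ALDH1A3 (chr15:100879581-100879880, plus strand) and CACGTG in KLF4 (chr9:107489720-107490019, minus strand).
ALDH1A1: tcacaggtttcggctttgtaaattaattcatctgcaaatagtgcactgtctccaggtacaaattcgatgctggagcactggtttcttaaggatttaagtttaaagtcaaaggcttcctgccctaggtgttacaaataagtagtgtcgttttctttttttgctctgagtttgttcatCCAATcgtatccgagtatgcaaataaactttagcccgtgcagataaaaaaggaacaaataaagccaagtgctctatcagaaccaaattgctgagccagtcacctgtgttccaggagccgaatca
ALDH1A3: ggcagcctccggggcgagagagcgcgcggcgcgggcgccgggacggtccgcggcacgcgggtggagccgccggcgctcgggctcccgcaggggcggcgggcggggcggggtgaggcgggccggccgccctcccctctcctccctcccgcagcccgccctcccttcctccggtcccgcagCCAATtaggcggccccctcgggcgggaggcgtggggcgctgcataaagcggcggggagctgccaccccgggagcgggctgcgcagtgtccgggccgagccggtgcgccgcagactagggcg
KLF4: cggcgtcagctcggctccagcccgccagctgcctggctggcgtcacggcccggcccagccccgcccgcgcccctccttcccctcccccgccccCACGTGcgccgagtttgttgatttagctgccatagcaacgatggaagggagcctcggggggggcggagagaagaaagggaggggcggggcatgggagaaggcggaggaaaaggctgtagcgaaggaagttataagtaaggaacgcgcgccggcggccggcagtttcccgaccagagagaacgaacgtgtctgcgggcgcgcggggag
GC made up 40.3% of the ALDH1A1 region and 81.7% of the ALDH1A3 region, against a median of 58.7%. Of all start regions 11.8% were lower in GC than that of ALDH1A1 and 98.6% lower than that of ALDH1A3.

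Of 17 other aldehyde dehydrogenases tested in CAL27 cells, 9 fell and 2 rose (median log2 fold change -0.25), against 21.8% and 22.6% of all genes tested. Of 15 in HSC3 cells 5 fell and 1 rose (median -0.18), against 15.4% and 13%. ALDH3A1, an enzyme of the cornea and of oral epithelium that detoxifies aldehydes, fell from 9.82 to 1.64 CPM in CAL27 cells (log2 -2.59, SE 0.11, adjusted p = 1.85e-13) and was at 0.143 and 0.0584 CPM in HSC3 cells without passing, though it passed there without HSC3 DOX replicate 1 (adjusted p = 0.0248). ALDH3B2 fell in CAL27 cells (log2 -1.09). The mitochondrial ALDH2 fell in CAL27 cells (log2 -0.31, adjusted p = 0.0481) and in HSC3 cells (log2 -0.57, adjusted p = 0.00197). The CAL27 call for ALDH2 was lost without any 1 of the CAL27 vehicle libraries or CAL27 DOX library 4 (adjusted p up to 0.0965). ALDH1A2, another retinal dehydrogenase, had a log2 fold change of -1.05 (adjusted p = 0.0645) in CAL27 cells and too few counts in HSC3 cells. It passed in CAL27 cells when counts were divided by the counts per molecule (log2 -1.07, adjusted p = 0.0348).

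Genes that make, carry and sense retinoic acid came next. Of 20 tested in CAL27 cells 10 fell and 1 rose (median log2 fold change -0.28), against 21.8% and 22.6% of all genes tested. The falls numbered 6 without CAL27 vehicle replicate 1 or 2 and in 1 fit of all 12 libraries. Of 17 in HSC3 cells 6 fell and 1 rose (median -0.27), against 15.4% and 13%. There were 0 rises there without any 1 of the HSC3 vehicle libraries or HSC3 DOX replicate 2 or 3. RDH10, which supplies retinal, fell in CAL27 cells (log2 -1.08, adjusted p = 0.00076) and in HSC3 cells (log2 -0.38, adjusted p = 0.0349), the latter lost without any 1 of the HSC3 vehicle libraries or HSC3 DOX replicate 2 or 3. DHRS3, which returns retinal to retinol and is known to be induced by retinoic acid, fell in CAL27 cells (log2 -0.54) and in HSC3 cells (log2 -1.39), the former lost without any 1 of the CAL27 vehicle libraries or CAL27 DOX library 5 or 6 (adjusted p up to 0.0792), and the receptor RARG fell in both (log2 -0.45 and -1.22). CRABP2, a carrier of retinoic acid, and CYP26B1, which degrades it, fell in HSC3 cells (log2 -1.19, adjusted p = 3.07e-05, and log2 -0.96, adjusted p = 0.00155) and did not pass in CAL27 cells (log2 -0.04 and -0.03). CRABP2 stood at 1.71 and 1.68 CPM in CAL27 and at 31.0 and 13.6 CPM in HSC3 vehicle and DOX libraries. DHRS9 did not pass in either line.

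**Figure D4:**
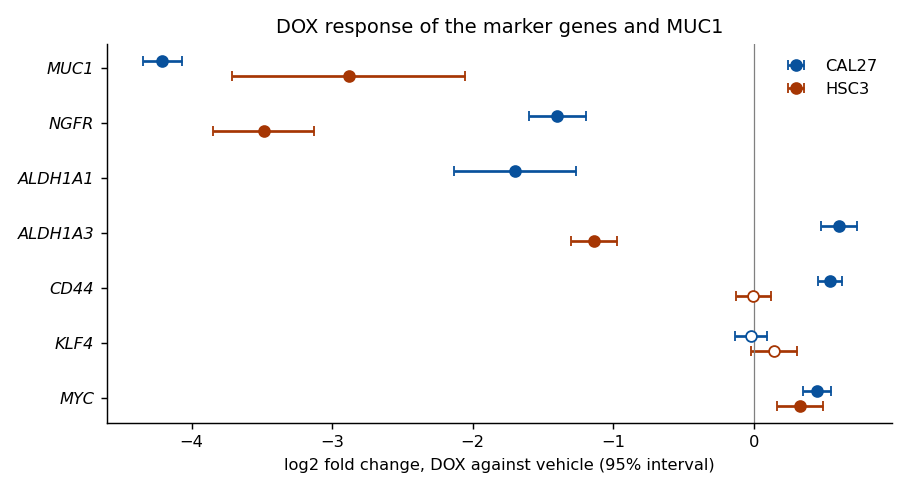
Log2 fold change with DOX of the marker genes and MUC1 in CAL27 and HSC3 cells, with 95% intervals and filled points for an adjusted p under 0.05. NGFR lay at -1.40 and -3.49, ALDH1A3 at 0.61 and -1.14, CD44 at 0.54 and -0.0029, and MYC at 0.45 and 0.33. ALDH1A1 is drawn for CAL27 only.

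The responses of the lines were then compared directly. Of the 5 genes tested in both lines, CD44, ALDH1A3 and NGFR had a lower response in HSC3 than in CAL27 cells, 0 had a higher one, and KLF4 and MYC did not pass. The 95% interval of the difference was -0.03 to 0.35 for KLF4 (log2 0.16, adjusted p = 0.243). Of all 20694 genes tested, 12.3% had a lower and 8.25% a higher response in HSC3 cells. ALDH1A1 also passed (adjusted p = 0.0166), but this rests on at most 28 counts in an HSC3 library and was lost (adjusted p = 0.0805) when counts were divided by the counts per molecule. MUC1 itself fell less in HSC3 cells (log2 difference 1.36, SE 0.25, adjusted p = 0.00101), a difference that was lost in the same way (adjusted p = 0.0965).

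Other stem cell genes were counted in the same way. Of 24 tested in CAL27 cells 7 rose and 8 fell (median log2 fold change -0.011), and of 22 in HSC3 cells 4 rose and 7 fell (median -0.36), or 11 fell without HSC3 DOX replicate 1. Over all genes tested, 22.6% rose and 21.8% fell in CAL27 cells, and 13% rose and 15.4% fell in HSC3 cells. SOX2, a pluripotency factor, fell from 27.8 to 11.3 CPM in CAL27 cells (log2 -1.31, SE 0.06, adjusted p = 9.87e-13). In HSC3 cells SOX2 was near absent, at 0.445 and 0.0425 CPM (38 to 58 counts against 2 to 12 per library), with a log2 fold change of -3.38 (SE 0.94, adjusted p = 0.0198) that was lost without any 1 of the HSC3 vehicle libraries or HSC3 DOX replicate 2. The log2 fold change of SOX2 in HSC3 cells ran from -4.88 (without HSC3 DOX replicate 3) to -2.96 (without HSC3 DOX replicate 1) over the alternatives. TP63, the master factor of basal epithelium, fell from 851 to 424 CPM in CAL27 cells (log2 -1.01, adjusted p = 9.44e-14) and from 805 to 349 CPM in HSC3 cells (log2 -1.21, adjusted p = 1.94e-07), with counts that do not separate its isoforms. KIT, a receptor kinase of progenitor cells, fell from 14.3 to 3.25 CPM in CAL27 cells (log2 -2.14, adjusted p = 2.59e-14) and from 4.53 to 0.823 CPM in HSC3 cells (log2 -2.46, adjusted p = 0.000172). BMI1, a Polycomb protein, and POU5F1 did not pass in either line with all libraries. Without HSC3 DOX replicate 1 both fell in HSC3 cells, BMI1 by 0.32 and POU5F1 by 0.94 on the log2 scale (adjusted p = 0.000683 and 0.00438). BMI1 also passed in 4 of 12 alternatives in CAL27 cells and POU5F1 in 4 of 13 in HSC3 cells. NANOG had at most 3 counts in a library. SOX2 and TP63 were among the genes the study examined in these cells, so that their falls are not independent evidence.

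**Figure D5:**
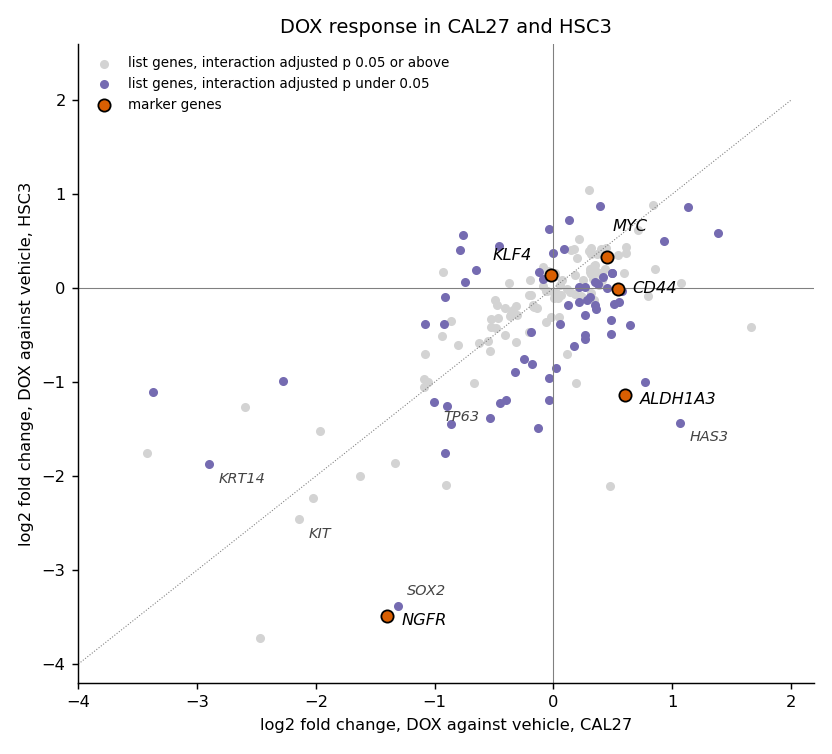
Log2 fold change with DOX in CAL27 cells (horizontal) and HSC3 cells (vertical) for 172 genes of the lists around the markers and for the 5 markers tested in both lines. The dotted line marks equal responses, and list genes in purple had an adjusted p under 0.05 for the difference. The 5 markers are drawn in orange whether or not they passed, and KLF4 and MYC did not. NGFR lay far below the line beside SOX2, and ALDH1A3 and HAS3 lay on the side of a rise in CAL27 and a fall in HSC3.

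The genes whose 4 group means followed a member most closely were taken from the 9257 genes whose mean log2 CPM over the 12 libraries was at least 3, by the root-mean-square (RMS) difference of log2 CPM after each gene was centred. For KLF4 they were TMEM167B (0.0145) and RAD50 (0.0159), and for MYC TMEM40 (0.0329) and PI4K2A (0.0403). For CD44 they were SPRED1 (0.0481) and AGO2 (0.0497). For ALDH1A3 they were SLC8A1 (0.112) and ABCC3 (0.142), and for NGFR UBE2Q2 (0.384) and TENM2 (0.486), where the value is again an RMS difference in log2 CPM over the 4 groups. The means were centred and not scaled, so these differences tend to grow with the size of a member's own changes. They do not rank how unusual a pattern is.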

How the data were processed

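RNA-seq of CAL27 and HSC3 cells carrying tet-MUC1shRNA was analysed, with 3 vehicle and 3 DOX libraries per line. Libraries were stranded poly(A) preparations of TRIzol-extracted RNA. The submitters' processing notes list FastQC 0.11.9, STAR 2.7.9a, Subread 2.0.1 and GRCh38. Use of strand and handling of duplicated reads and of reads mapped to several places are not given in the sources used here, and reads counted from opposite or overlapping genes can raise a value. The authors deposited whole-number counts per gene symbol, not normalized, in 1 table per line. CAL27 DOX columns are numbered 4 to 6 and were mapped to their group only. Cells were grown in triplicate, and p-values measure the spread between these cultures of each line.

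The 7 members and the gene lists were chosen with earlier results of these data known. Counts were fitted in R 4.3.3 with edgeR 4.0.16 (TMM, filterByExpr with a minimum count of 10 and total of 15, robust glmQLFit, glmQLFTest). Each line was fitted alone for DOX. Lines at baseline and the interaction of line and DOX came from 1 fit of all 12 libraries with 4 groups. A gene passed at a Benjamini-Hochberg adjusted p under 0.05, and falls of more than 2-fold were counted beside this. Intervals are 95% intervals of the fitted log2 fold change. These intervals include the spread between libraries, and floors of 3 counts cover counting error only. The number of counts per molecule was estimated in each library from the share of genes without a count among those expected to have 8 to 16. Expected counts came from the other libraries of the group, so differences between libraries raise the estimate. On simulated counts 100% of 200 changed genes were recovered in CAL27 (19306 genes), HSC3 (18053 genes) and the interaction (20549 genes). The unchanged genes called numbered 2, 2 and 3. Recovery at the members' own fold changes, counts and spread between libraries was not tested.

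Coordinates and exon lengths are from GENCODE v44 on GRCh38, whose gene models may differ from those counted. Genes named were the members, MUC1, fixed partners in each pathway and, per list, line and direction, up to 3 with the largest change among those past the test, above 2-fold and expressed at a mean log2 CPM of 1 or more. Some genes that this rule names are not reported here. CDH5, SOX10 and S100B were named after their values were seen. Alternatives covered DESeq2's size factors or library totals, no filter, DESeq2 1.42.0, counts per molecule, 1 fit of 12 libraries, the 6 vehicle libraries alone, a replicate block, other fold thresholds and each library left out. The counts of gene lists under these were added after the data had been seen.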

Additional observations from a re-analysis of the deposited data

Results flagged for a closer look

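The difference in DOX response between HSC3 and CAL27 cells passed the test (edgeR interaction, adjusted p under 0.05) for the members CD44 (log2 -0.54), ALDH1A3 (-1.74) and NGFR (-2.09) and for MUC1 (1.36). All are HSC3 minus CAL27 on the log2 scale. It also passed for ALDH1A1 and HAS2, which had too few counts in HSC3 cells for a fold and lost the call in 1 of the alternatives (ALDH1A1) and in 2 (HAS2).

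The same test passed for genes around NGFR, namely BDNF (log2 difference -0.80) and SORT1 (-0.79), and for genes around CD44, namely HAS3 (-2.50), HMMR (-0.36) and CEMIP (-0.58). Of the retinoic acid genes it passed for CYP26B1 (log2 difference -0.92), CRABP2 (-1.15), RARG (-0.77) and DHRS3 (-0.85), and with a smaller fall in HSC3 cells for RDH10 (0.70). Around KLF4 and MYC it passed for KLF6 (log2 difference 0.38), MAX (0.18), MXD1 (-0.68), MXI1 (0.55), ODC1 (-0.27), AIMP2 (-0.37) and LDHA (-0.79). Among stem cell and keratinocyte genes it passed for SOX2 (log2 difference -2.14, from 2 to 58 counts in the HSC3 libraries), TP63 (-0.20), KRT13 (2.25), KRT14 (1.02) and KRT15 (1.29). Of 17 alternatives, the call was lost in 13 for TP63, 11 for AIMP2, 9 each for CEMIP and MAX, 8 for BDNF, 5 each for CYP26B1 and ODC1, 2 for HMMR and 1 each for MUC1, SOX2 and KRT13. Without HSC3 DOX replicate 1 the difference also passed for ESRP2 (0.41, adjusted p = 0.0010) and POU5F1 (-1.04, adjusted p = 0.0209) and was lost for AIMP2 (adjusted p = 0.0576). It passed there for ALDH3A1 too (-4.42, adjusted p = 0.0169), which was near 0 in HSC3 cells and changed sign. Over the 17 alternatives ESRP2 passed in 5 and POU5F1 in 2. Groups of 3 libraries are too small for a test of single outlying libraries.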

How the results depend on the processing

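Over 25 results for the members, 336 of 338 values from the alternatives kept their side of the threshold, and all that passed kept their direction. Among values that did not pass, 6 changed sign, for KLF4 in CAL27 cells and CD44 in HSC3 cells, whose values lie near 0. The exceptions were ALDH1A1 in CAL27 cells in 1 fit of 12 libraries (adjusted p = 0.0753) and its interaction with counts per molecule (adjusted p = 0.0805). With each library left out, 5 to 6 members passed in CAL27 cells, 3 in HSC3 cells, 7 at baseline and 4 in the interaction, and genes past the test and 2-fold numbered 1157 to 1376, 899 to 1278, 6202 to 6610 and 861 to 1444. These numbers were 1236 in CAL27 and 1077 in HSC3 cells with all libraries, 742 and 1782 in 1 fit of 12, 2562 and 2312 at 1.5-fold, and 8554 and 5124 with no fold threshold. PROM1 in CAL27 cells could be tested with no filter (log2 -2.18, adjusted p = 0.0355), in 1 fit of 12 (0.296), with DESeq2 (0.0649), without CAL27 vehicle replicate 2 (-2.39, 0.0482) and without CAL27 DOX library 4 (-3.57, 0.0075), 5 (-2.08, 0.088) or 6 (-1.56, 0.103). At baseline the median of all genes was -0.12, and -0.39 with library totals, -0.24 with no filter and -0.26 with DESeq2, and KLF4 ranged from 0.16 to 0.45 (adjusted p up to 0.0452), MYC from 1.33 to 1.61 and CD44 from 0.98 to 1.26. Of 2296 values for MUC1 and the other genes named, 2144 kept their side of the threshold (61 of these, which did not pass, changed sign), 109 lost the threshold, 40 gained it and 3 changed sign with a call in at least 1 of the fits, which were MXI1 at baseline with library totals (-0.074, adjusted p = 0.353, against 0.20) and the interactions of ALDH3A1 without HSC3 DOX replicate 1 (-4.42 against 1.45, up to 2.02 without others) and ALDH1A2 without HSC3 DOX replicate 2 (-5.40 against 0.42, up to 1.04 without others), both near 0 in HSC3 cells. Of the list genes other than members, 133 in CAL27 and 73 in HSC3 cells passed the test, and 28 and 19 at more than 2-fold. Over all genes, 8554 of 19239 tested in CAL27 and 5124 of 18021 in HSC3 cells passed, and 1236 and 1077 at more than 2-fold. In 1 fit of 12 the CAL27 counts were 3 rises and 3 falls (against 5 and 5) for neurotrophin genes, 2 falls (4) for hyaluronan genes, 2 falls (4) for prominin genes, 3 rises (5) for KLF genes and 3 rises (5) for MYC network genes. In HSC3 cells the deviations of same-numbered libraries had correlations of no common sign. For replicates 1, 2 and 3 these were -0.0468, 0.0514 and -0.0293 over all genes. Among genes with a log2 CPM of at least 3 they were -0.20, 0.35 and -0.35. With the replicate number as a block, 3 members passed, 1005 genes were called, MYC had a log2 fold change of 0.33 (adjusted p = 0.0102) and BDNF lost its call (0.58, adjusted p = 0.0821). CAL27 DOX columns carry no replicate number of their own, so no block was fitted there. Few counts limit what can be said of ALDH1A1 in HSC3 cells and of PROM1 in both lines. The cause of these shifts was not tested.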
